A study of Drosophila melanogaster with 15 samples.

Results

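Aminoacyl-tRNA synthetases load each tRNA with its amino acid, and the fly genome encodes them in a cytosolic and a mitochondrial set. Their transcripts were examined in the complete central nervous system of wandering third-instar Drosophila larvae. The members are all probe sets whose annotated symbol is a three-letter amino acid code followed by RS, with or without the suffix -m, together with GluProRS, alpha-PheRS and beta-PheRS. This rule gave 32 of 11982 genes, measured by 34 of 18769 probe sets. Of these, 20 probe sets for 18 genes carried no suffix and are called cytosolic, and 14 probe sets for 14 genes carried -m and are called mitochondrial. TrpRS had 3 probe sets and every other gene had 1. All 34 passed the filter on dim probe sets, and only CysRS-m, on COX5B RNAi array 1, was not above its array's median signal. AspRS, MetRS and AlaRS-m, which the rule would also take, were not analysed here.

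Transcripts were measured on 15 Affymetrix expression arrays, 3 for each of 5 groups. In every group, control included, nSyb-Gal4 drove expression in neurons. The larvae carried this driver with 1 RNAi construct against ND-75 of complex I (line 33910), UQCR-14 of complex III (line 109542), COX5B of complex IV (line 105769) or ATPsynCf6 of complex V (line 107826). Control larvae were nsybGal4/+ and had no RNAi construct, so an effect of expressing any hairpin cannot be told apart from an effect of the target. There was a single line for each target, and each sample pooled the nervous systems of 15 larvae reared at 25 °C. The comparisons ask how the synthetase transcripts of the nervous system differ when neurons receive these constructs. The arrays measured the whole tissue, glia and progenitors included, so that fewer cells of a type and less RNA per cell cannot be told apart.

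A cytosolic synthetase serves the ribosomes that translate nuclear transcripts. A mitochondrial one is imported and serves the organelle's own ribosomes, which make the few respiratory subunits encoded in mitochondrial DNA. Both sets are encoded in the nucleus. When a tRNA stays uncharged, the kinase Gcn2 phosphorylates eIF2alpha, which favours translation of the transcription factor ATF4 (crc in flies). In mammals, several genes of cytosolic synthetases and of amino acid synthesis are known ATF4 targets. LysRS, HisRS, ThrRS, GlyRS and GlnRS have no counterpart with -m in the reference gene table. GluProRS has none under its own symbol, but GluRS-m and ProRS-m, for the same amino acids, are members. In humans the lysyl and glycyl enzymes serve both compartments from 1 gene each. Mitochondrial glutaminyl-tRNA is commonly made by charging with glutamate and then amidating with the GatCAB complex.

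The signals are MAS5 intensities on a linear scale, as deposited. Changes are log2 fold changes after adding 16 to each signal, from limma fits over 10340 kept probe sets. A call needs an adjusted p (Benjamini-Hochberg over all of them) under 0.05. Of the 15 arrays, 5 stood apart, with an upper quartile of 170 to 485 against 566 to 653 on the other 10. These were array 3 of ND-75, UQCR-14 and COX5B RNAi, array 1 of COX5B RNAi and control array 3. The actin probe sets gave a 3' to 5' signal ratio of 70.1 on COX5B RNAi array 1, 37.4 on ND-75 RNAi array 2 and 20.1 on ND-75 RNAi array 3, and of 2.94 to 5.03 on the other 12. Besides the fit over all 15 arrays, results are therefore given from a fit of the 15 with limma's array weights (0.0266 to 0.297 for the 5, 1.01 to 5.21 for the 10), and from a fit of the 10. In the 10-array fit COX5B RNAi has 1 array, which is assumed to vary like the other groups. None of the 4 targeted transcripts was called in its own RNAi group in any of these fits (changes over 15 arrays of -0.55 for ND-75, 0.15 for UQCR-14, -0.72 for COX5B and 0.00 for ATPsynCF6, lowest adjusted p = 0.275). Markers of glia and of neuroblasts were above the array median on all arrays for each of the 6 measured genes of each list. Of 5 measured neuronal markers, 3 were.

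Nearly all synthetase transcripts showed no change that passed the test. Over all 15 arrays, 0 of 34 were called in any comparison with limma, and an unadjusted p under 0.05 was reached by 0 in ND-75, 0 in UQCR-14, 3 in COX5B and 0 in ATPsynCf6 RNAi. This fit called few probe sets of any kind, namely 0.0677% of all kept ones in ND-75, 0.0484% in UQCR-14, 0% in COX5B and 0.0193% in ATPsynCf6 RNAi. Averaged over the 4 RNAi groups, 0 members were called against control, beside 0.0484% of all. The F test among the 4 RNAi groups gave 0 members beside 0.106% of all, and 1 member each had an unadjusted p under 0.05 in these comparisons.

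With array weights, 1 member was called, AsnRS-m in the mean of the 4 RNAi groups, where 3.99% of all kept probe sets were called. No member was called in the single contrasts or in the F test of the weighted fit, in which 1.57% (ND-75), 4.47% (UQCR-14), 0.203% (COX5B), 6.91% (ATPsynCf6) and 2.72% (F test) of all probe sets were called. The numbers of members with an unadjusted p under 0.05 were 2, 1, 1, 5 and 2 in that order. Over the 10 arrays, 1 member was called, again AsnRS-m, in UQCR-14 RNAi, where 4.59% of all were called. No member was called in the other 10-array comparisons, with 1.69% (ND-75), 1.24% (COX5B), 3.22% (ATPsynCf6), 3.12% (mean of the 4) and 4.4% (F test) of all probe sets called. There 3, 2, 8, 5 and 5 members had an unadjusted p under 0.05. A single member of 34 is close to the share of all probe sets called in both comparisons. The percentages of all probe sets are for adjusted p. The counts of members by unadjusted p, in every fit, have no share of all kept probe sets at that threshold beside them. They are therefore not read as more or fewer than among all kept probe sets.

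The weighted fit bounded most of these changes. In ND-75 and ATPsynCf6 RNAi the 95% interval lay between -1 and 1 for all 20 cytosolic and all 14 mitochondrial probe sets. In UQCR-14 RNAi it did so for all 20 cytosolic and 13 mitochondrial probe sets, and in COX5B RNAi for 15 and 13. Over the 10 arrays it did so for 19 or 20 cytosolic and 13 or 14 mitochondrial probe sets in each RNAi group. In the unweighted fit of 15 arrays at most 3 members of a class met this in any single contrast, so that fit did not bound the changes to this range.

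**Figure D1:**
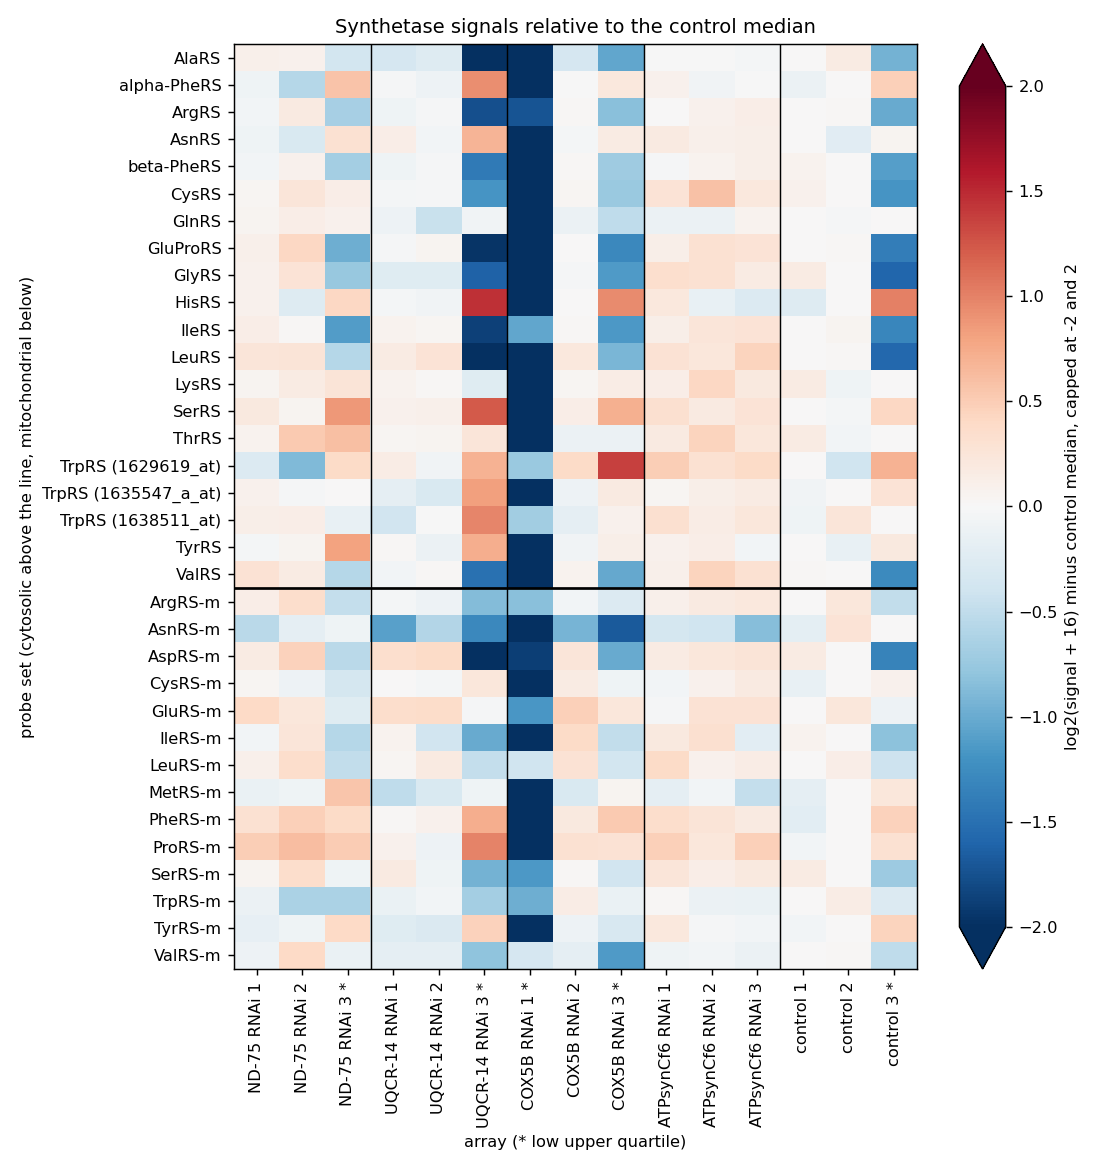
Deviation of each of the 34 synthetase probe sets (rows, cytosolic above the line and mitochondrial below) from the median of the 3 control arrays, on each of the 15 arrays (columns, log2 scale, colours capped at -2 and 2). COX5B RNAi array 1 is low for all 20 cytosolic probe sets, the other starred arrays of low upper quartile show a mixed pattern, and the row of AsnRS-m is blue on every RNAi array.

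AsnRS-m, the mitochondrial asparaginyl-tRNA synthetase (probe set 1636295_at), had the most negative change of all members in the mean of the 4 RNAi groups, in each of the 3 fits. Its signals were 593, 764 and 812 in ND-75 RNAi, 398, 575 and 345 in UQCR-14 RNAi, 78.4, 448 and 258 in COX5B RNAi and 676, 653 and 474 in ATPsynCf6 RNAi, against 753, 1049 and 867 in control. All 9 arrays of UQCR-14, COX5B and ATPsynCf6 RNAi lay below all 3 control arrays, while ND-75 RNAi overlapped with control, at 2 arrays above the lowest control array. Mean log2 signals were 9.52 ± 0.24 in ND-75, 8.80 ± 0.37 in UQCR-14, 7.84 ± 1.17 in COX5B and 9.25 ± 0.28 in ATPsynCf6 RNAi, and 9.81 ± 0.24 in control (SD, n = 3 arrays each). In descending order the groups were thus control, ND-75, ATPsynCf6, UQCR-14 and COX5B RNAi. The arrays of each group overlapped with those of its neighbour in this order. The F test did not separate the 4 RNAi groups from each other (adjusted p = 0.893 over 15 arrays, 0.722 with weights and 0.359 over 10 arrays).

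The 2 calls of AsnRS-m had the following sizes. In the mean of the 4 RNAi groups it fell by 0.70 on the log2 scale with array weights (SE 0.17, limma adjusted p = 0.0258). In UQCR-14 RNAi it fell by 0.87 over the 10 arrays (SE 0.23, limma adjusted p = 0.0478). The other comparisons of AsnRS-m missed the threshold. With weights the changes were -0.39 in ND-75 (adjusted p = 0.608), -0.74 in UQCR-14 (0.0710), -1.13 in COX5B (0.451) and -0.53 in ATPsynCf6 RNAi (0.0670). Over the 10 arrays they were -0.39 in ND-75 (adjusted p = 0.475), -0.96 in COX5B (0.129) and -0.57 in ATPsynCf6 RNAi (0.195), and the mean of the 4 was -0.70 (0.0598). Over all 15 arrays without weights they were -0.29, -1.01, -1.97 and -0.56 in the order of the complexes, and -0.96 in the mean of the 4 (adjusted p = 1.00), with COX5B RNAi at an adjusted p of 0.541.

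Both calls depended on single arrays. The weighted call was kept in 7 of 15 fits that each left out 1 array, and the change ranged from -0.99 to -0.62 (adjusted p from 0.0199 to 0.889). It was lost without array 1 or 2 of ND-75, UQCR-14 RNAi or control and without array 2 or 3 of COX5B RNAi. The 10-array call in UQCR-14 RNAi was kept in 3 of 9 such fits, with changes from -1.13 to -0.62 (adjusted p from 0.0233 to 0.318). It was lost without array 1 or 2 of UQCR-14 RNAi, ATPsynCf6 RNAi or control. The sign was negative in every one of these fits. Among the arrays numbered 3, which stood apart in 4 groups, AsnRS-m read 812, 345 and 258 in ND-75, UQCR-14 and COX5B RNAi, against 867 in control.

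The cytosolic asparaginyl enzyme, AsnRS (1624475_at), had no group wholly below control. It read 2834, 2430 and 3710 in ND-75, 3294, 2898 and 4803 in UQCR-14, 102, 2914 and 3368 in COX5B and 3412, 3227 and 3273 in ATPsynCf6 RNAi, against 3003, 2571 and 3104 in control. The ATPsynCf6 RNAi arrays lay above all 3 control arrays, and in COX5B RNAi array 1 was far below control while arrays 2 and 3 were not. Over the 10 arrays the change of AsnRS exceeded that of AsnRS-m by 0.31 in ND-75, 1.02 in UQCR-14, 1.03 in COX5B and 0.82 in ATPsynCf6 RNAi. The difference between the paired changes was not tested.

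**Figure D2:**
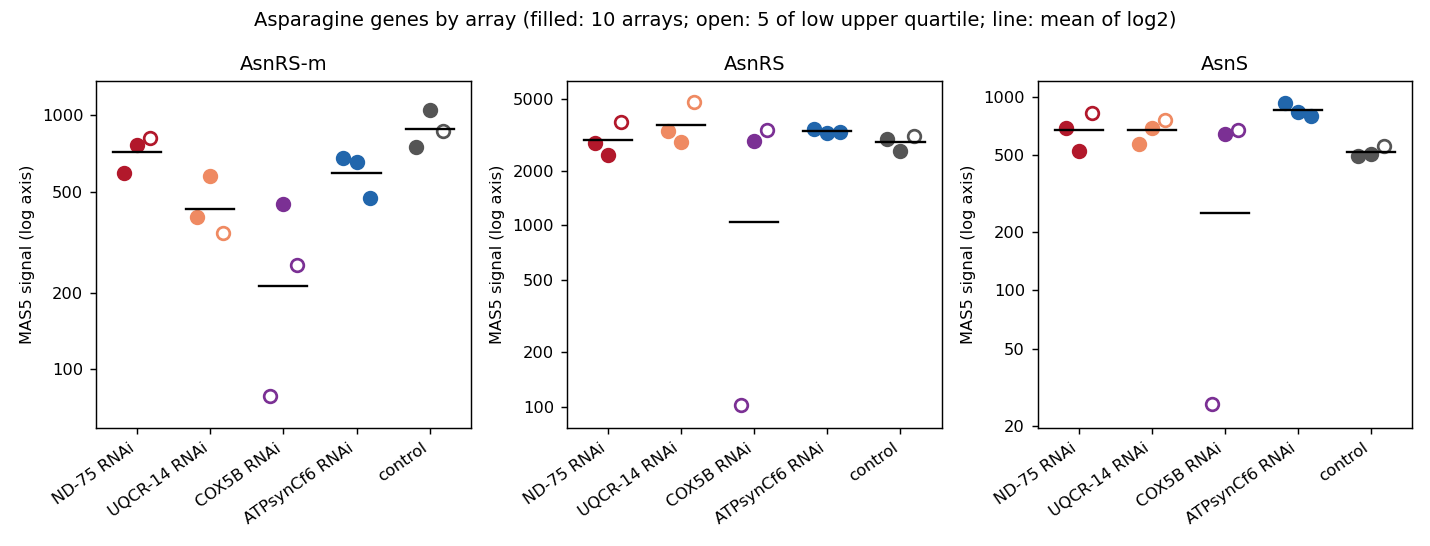
MAS5 signal on each array (log axis) of AsnRS-m, AsnRS and the asparagine synthetase AsnS in the 4 RNAi groups and control, with filled points for the 10 arrays, open points for the 5 of low upper quartile and a line at the mean of the log2 signals. AsnRS-m lies below all control points in UQCR-14, COX5B and ATPsynCf6 RNAi, and AsnS lies at 931, 839 and 796 in ATPsynCf6 RNAi against 496, 509 and 558 in control.

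ProRS-m, which charges mitochondrial prolyl-tRNA (1629758_at), was the mitochondrial member with the highest changes in ND-75 RNAi. It read 398, 437 and 403 there, against 267, 278 and 348 in control, with no overlap. In ATPsynCf6 RNAi it read 394, 327 and 394, in UQCR-14 RNAi 298, 258 and 571 and in COX5B RNAi 37.4, 348 and 344, all 3 groups overlapping with control. Its change in ND-75 RNAi was 0.56 with weights (SE 0.17, adjusted p = 0.138) and 0.59 over the 10 arrays (SE 0.17, adjusted p = 0.124). In ATPsynCf6 RNAi it was 0.41 with weights (adjusted p = 0.0600) and 0.42 over the 10 (0.194). None of these passed the test.

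PheRS-m, the single-chain mitochondrial phenylalanyl enzyme (1636872_at), is named after its values were seen. It read 1433, 1617 and 1521 in ND-75, 1179, 1231 and 1919 in UQCR-14, 203, 1330 and 1677 in COX5B and 1486, 1392 and 1317 in ATPsynCf6 RNAi, against 998, 1157 and 1605 in control. The range of the control arrays, with array 3 the highest, overlapped with every RNAi group. Over 15 arrays its change was 0.30 in ND-75 and 0.18 in ATPsynCf6 RNAi (SE 0.61 each). With weights the changes were 0.47 (SE 0.16, adjusted p = 0.183) and 0.38 (SE 0.12, adjusted p = 0.0637), and over the 10 arrays 0.50 (SE 0.12, adjusted p = 0.0755) and 0.37 (SE 0.11, adjusted p = 0.117). None of these passed the test. The cytosolic phenylalanyl enzyme is built of 2 chains, alpha-PheRS and beta-PheRS, whose changes in ND-75 RNAi over the 10 arrays were -0.27 and -0.02.

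GlnRS, the glutaminyl enzyme (1640088_at), had closely grouped control arrays and did not overlap with control in 3 comparisons, in opposite directions. It read 1481, 1565 and 1522 in ND-75, 1328, 1039 and 1359 in UQCR-14, 39.7, 1321 and 996 in COX5B and 1316, 1321 and 1501 in ATPsynCf6 RNAi, against 1427, 1411 and 1441 in control. The ND-75 arrays lay above control and the UQCR-14 and COX5B arrays below it. With weights the changes were 0.08 in ND-75 (SE 0.17, adjusted p = 0.976), -0.33 in UQCR-14 (SE 0.17, adjusted p = 0.334) and -0.28 in COX5B RNAi (SE 0.28, adjusted p = 1.00). Over 15 arrays without weights, COX5B RNAi array 1 included, the change in COX5B RNAi was -1.77 (SE 0.83, adjusted p = 0.541), and over the 10 arrays it was -0.10. In ND-75 RNAi the change was 0.09 over 15 arrays and 0.10 over the 10, and in UQCR-14 RNAi -0.21 and -0.27.

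**Figure D3:**
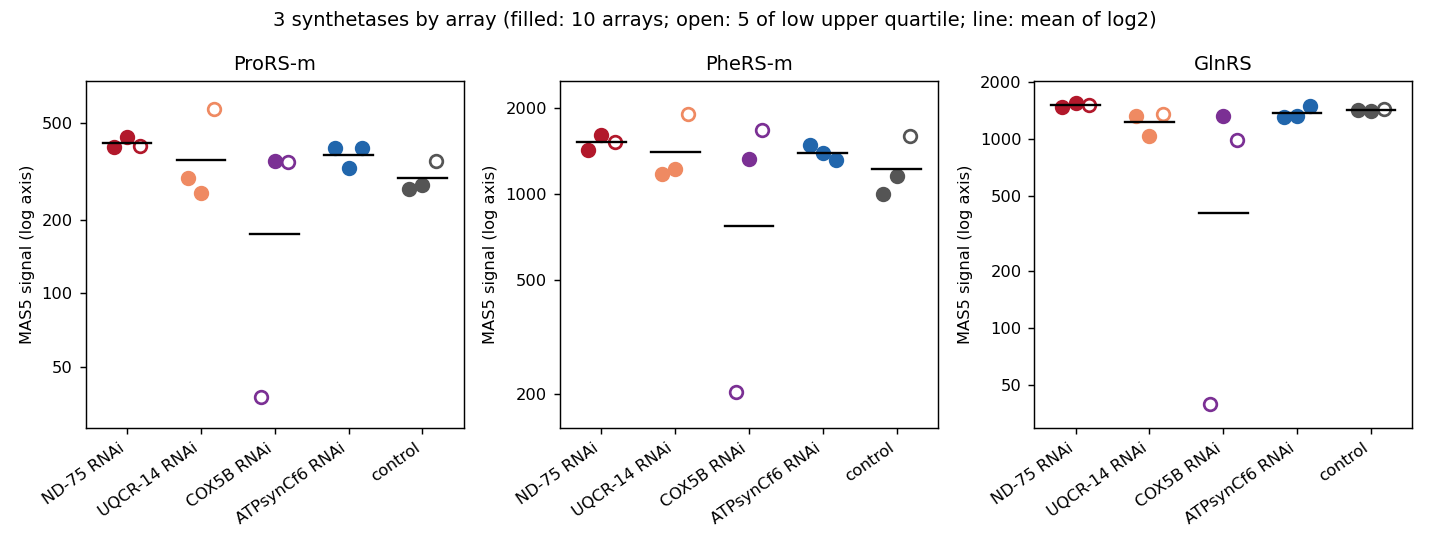
MAS5 signal on each array (log axis) of ProRS-m, PheRS-m and GlnRS in the 4 RNAi groups and control, with filled points for the 10 arrays, open points for the 5 of low upper quartile and a line at the mean of the log2 signals. ProRS-m lies at 398 to 437 in ND-75 RNAi against 267 to 348 in control, control array 3 is the highest control point of PheRS-m, and the 3 GlnRS control points lie between 1411 and 1441.

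Members whose RNAi arrays lay wholly on 1 side of control numbered 2 in ND-75, 2 in UQCR-14 and 4 in COX5B RNAi. These counts were not tested. In ND-75 RNAi 2 of 34 lay above (GlnRS and ProRS-m), where 3.54% of all kept probe sets did so, and 0 lay below, against 4.13% of all. In UQCR-14 RNAi 0 lay above, against 3.37%, and 2 below (GlnRS and AsnRS-m), against 3.8%. In COX5B RNAi 0 lay above, against 2.99%, and 4 below (GlnRS, ThrRS, AsnRS-m and TyrRS-m), against 4.41%.

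ATPsynCf6 RNAi was the group with the most cytosolic members on 1 side. There 8 of 34 lay above control, 7 of them cytosolic (AsnRS, CysRS, GluProRS, IleRS, LeuRS, ThrRS and ValRS) and 1 mitochondrial (AspRS-m), where 8.95% of all kept probe sets did so. AsnRS-m was the 1 member below, against 6.26% of all. LeuRS, the leucyl enzyme (1623193_at), read 1949, 1866 and 2176 in ATPsynCf6 RNAi, against 1596, 1617 and 528 in control. CysRS, the cysteinyl enzyme (1625878_at), read 1858, 2306 and 1761, against 1628, 1526 and 664 in control. ValRS, the valyl enzyme (1638259_s_at), read 1361, 1743 and 1574, against 1291, 1269 and 513 in control. In each of the 3, control array 3 was far below its companions, and the ATPsynCf6 arrays stood only slightly above control arrays 1 and 2.

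For LeuRS, CysRS and ValRS the size of the difference rested on control array 3. Over all 15 arrays the changes in ATPsynCf6 RNAi were 0.83 for LeuRS, 0.72 for CysRS and 0.71 for ValRS, and over the 10 arrays, without control array 3, they were 0.31, 0.31 and 0.27 (SE 0.11, 0.13 and 0.12, adjusted p = 0.174, 0.265 and 0.302). AspRS-m, the mitochondrial aspartyl enzyme (1629374_at), read 2293, 2396 and 2441 in ATPsynCf6 RNAi, against 2271, 2035 and 800 in control, and its change was 0.61 over 15 arrays and 0.14 over the 10 (SE 0.12, adjusted p = 0.645). None of these 4 genes was called in any of the 3 fits. GluProRS and IleRS also had smaller changes over the 10 arrays (0.22 and 0.19) than over 15 (0.68 and 0.63). AsnRS and ThrRS did not depend on control array 3 in this way. Their changes were 0.20 and 0.25 over 15 arrays and 0.25 and 0.23 over the 10.

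Most synthetases of both classes had small positive changes in ATPsynCf6 RNAi, none called. The cytosolic change was positive in 18 of 20 probe sets with weights and in 18 over the 10 arrays, with a median of 0.19 and 0.18, beside a median of 0.00 and -0.01 over all kept probe sets. For the mitochondrial class 10 of 14 were positive in both fits, with a median of 0.10 and 0.07. On every one of the 3 ATPsynCf6 RNAi arrays the median deviation of the cytosolic members from control was 0.12 to 0.18. That of the mitochondrial members was 0.11 to 0.16 on the same arrays. The members share their arrays, so these counts describe the arrays and were not tested. Fat body markers also stood higher in this group: the summed signal of the 5 measured genes of the list was 10898 to 15303 in ATPsynCf6 RNAi, against 8232 to 10242 in control. The part of fat body RNA in the synthetase values was not tested.

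**Figure D4:**
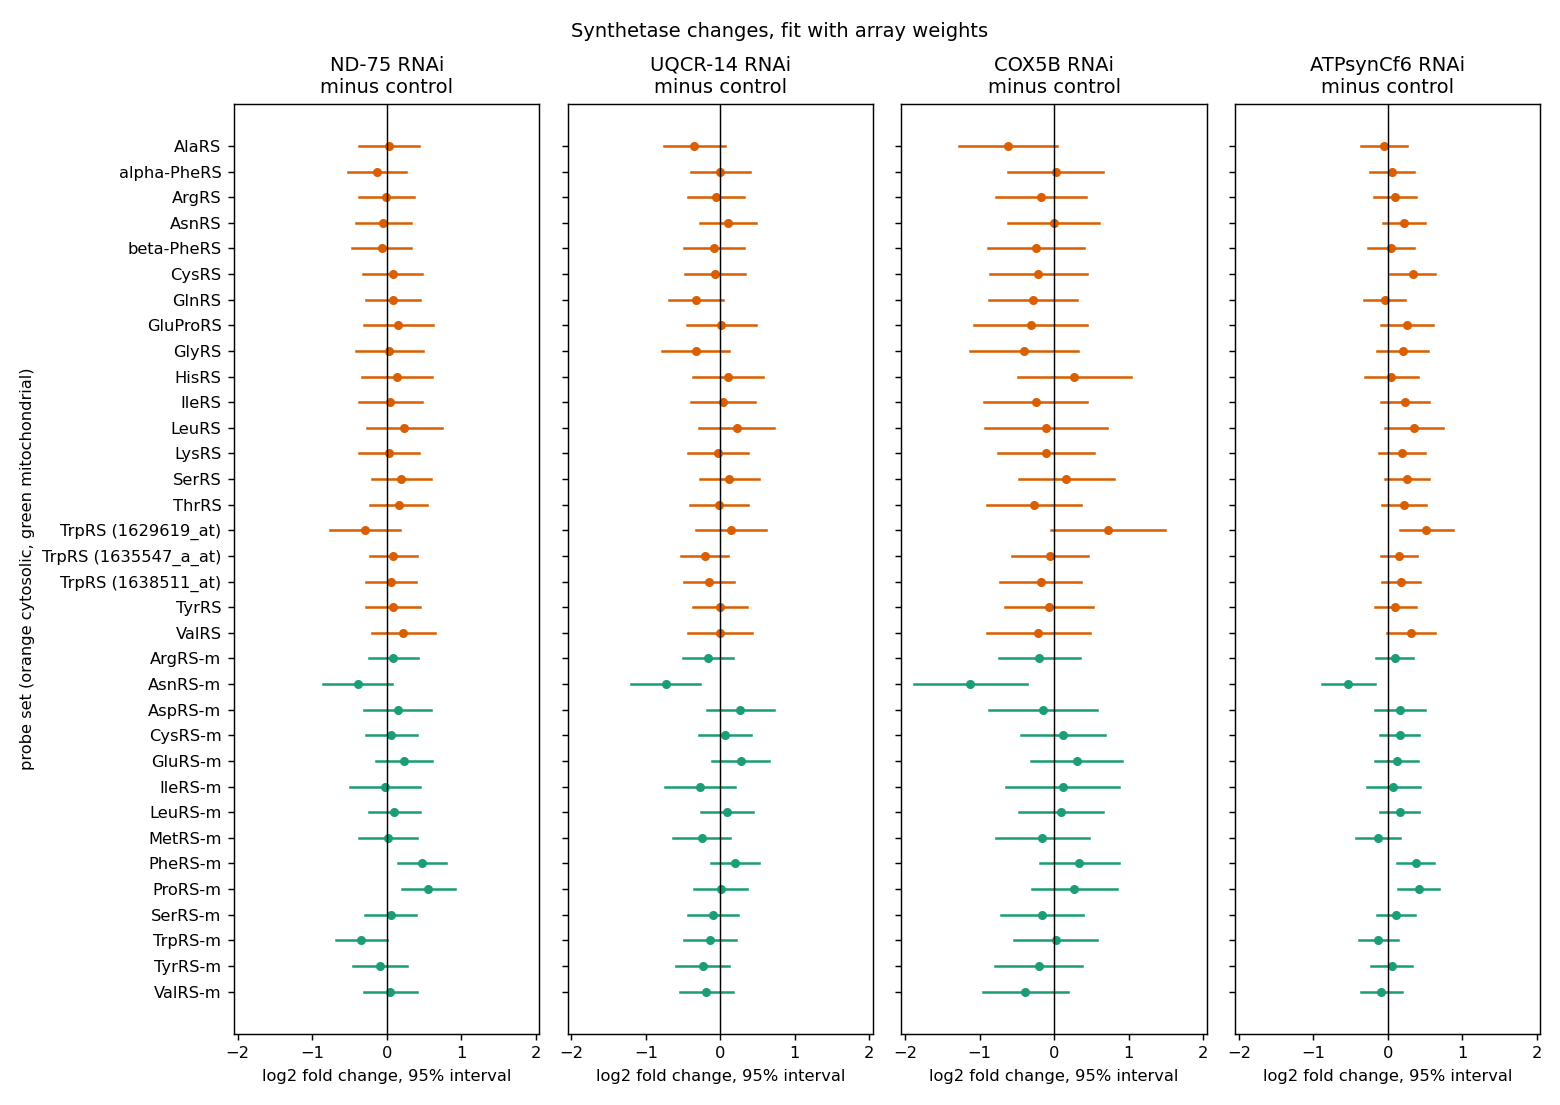
Log2 fold change with its 95% interval for each of the 34 synthetase probe sets in the 4 RNAi groups relative to control, from the fit with array weights (orange, cytosolic, n = 20; green, mitochondrial, n = 14). The interval of AsnRS-m lies below 0 in UQCR-14, COX5B and ATPsynCf6 RNAi, most cytosolic changes in ATPsynCf6 RNAi lie just right of 0 and the intervals are widest in COX5B RNAi.

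In ND-75 and UQCR-14 RNAi the class medians were as follows. In ND-75 RNAi the weighted median change was 0.07 for cytosolic and 0.06 for mitochondrial members, beside -0.01 over all kept probe sets. Over 15 arrays it was 0.14 and 0.09, beside 0.00, and over the 10 arrays 0.07 and 0.13, beside -0.03. In UQCR-14 RNAi the weighted median was -0.01 for cytosolic and -0.12 for mitochondrial members, beside -0.02 over all. Over 15 arrays it was -0.06 and -0.13, beside -0.07, and over the 10 arrays 0.00 and -0.10, beside -0.03. AlaRS, the alanyl enzyme, had the lowest cytosolic change in UQCR-14 RNAi, at -0.35 with weights (adjusted p = 0.358) and -0.38 over the 10 arrays (adjusted p = 0.0791). Fat body markers summed to 12431 to 13217 in UQCR-14 RNAi, against 8232 to 10242 in control, and salivary gland markers (8 of 8 measured, ng1 above the median on no array) to 3540 to 17720, against 892 to 12734. Their part in the values of UQCR-14 RNAi was not tested.

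In COX5B RNAi the values depended on 1 array. Over 15 arrays the median change was -1.22 for cytosolic and -0.51 for mitochondrial members, beside -0.32 over all kept probe sets. On COX5B RNAi array 1 the median deviation from control was -3.84 for cytosolic members, -2.03 for mitochondrial ones and -0.96 for all kept probe sets. All 20 cytosolic and 12 of 14 mitochondrial probe sets were lower there by more than 0.5. On the same array the actin ratio was the highest of all, and several marker lists stood above control. Neuronal markers (5 of 7 measured) summed to 22012, against 5684 to 11915 in control, and neuroblast markers (6 of 6) to 19057, against 8866 to 14127. Fat body markers (5 of 8) summed to 21098, against 8232 to 10242, imaginal disc markers (4 of 4) to 4729, against 1242 to 1795, and muscle markers (5 of 8) to 823, against 292 to 421. Ring gland markers stood below control, at 259 against 839 to 3268, and so did glial markers, at 17018 against 17181 to 28079. Salivary gland markers, at 2824, lay within the control range. Their part in the synthetase values was not tested. With weights the median change was -0.18 for cytosolic and -0.06 for mitochondrial members, beside -0.01 over all. On COX5B RNAi array 2, the 1 array of this group in the 10-array fit, the median changes were 0.00 and 0.12.

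ThrRS and TyrRS-m showed this dependence. ThrRS, the threonyl enzyme (1640984_s_at), read 221, 3866 and 3847 in COX5B RNAi, against 4659, 4015 and 4177 in control. TyrRS-m, the mitochondrial tyrosyl enzyme (1636157_at), read 27.1, 582 and 495, against 602, 625 and 859 in control. In both genes arrays 2 and 3 of COX5B RNAi were close below the control arrays and array 1 was far below. The change over 15 arrays was -1.49 for ThrRS and -1.57 for TyrRS-m, and with weights -0.27 (SE 0.30) and -0.20 (SE 0.28), all at adjusted p of 0.541 or above.

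The 3 probe sets of TrpRS, the cytosolic tryptophanyl enzyme, disagreed in COX5B RNAi. Probe set 1629619_at read 44.0, 115 and 244, against 84.2, 60.2 and 146 in control. Probe set 1635547_a_at read 112, 630 and 777, against 646, 681 and 826 in control. Probe set 1638511_at read 629, 900 and 1086, against 971, 1216 and 1026 in control. Their changes over 15 arrays were 0.24, -0.86 and -0.32, and with weights 0.72, -0.05 and -0.18, none called. The first is dim, and in the unweighted fit its sign turned without COX5B RNAi array 3 (-0.27) and without control array 2 (-0.004). The sign of the second turned in the weighted fit without COX5B RNAi array 1 (0.08), and that of the third after median centring (0.26).

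The 2 classes were set against each other on each array. The median cytosolic deviation minus the median mitochondrial one was between -0.18 and 0.08 on the 10 arrays and between -1.81 and 0.42 on the 5 others. Control arrays 1 and 2, which are part of the reference, were at 0. Over 15 arrays the difference of the median changes, cytosolic minus mitochondrial, was -0.71 in COX5B RNAi. It was -0.05 without COX5B RNAi array 1, -1.22 without array 3, and -0.12 with weights and over the 10 arrays. No test was made of these class values.

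**Figure D5:**
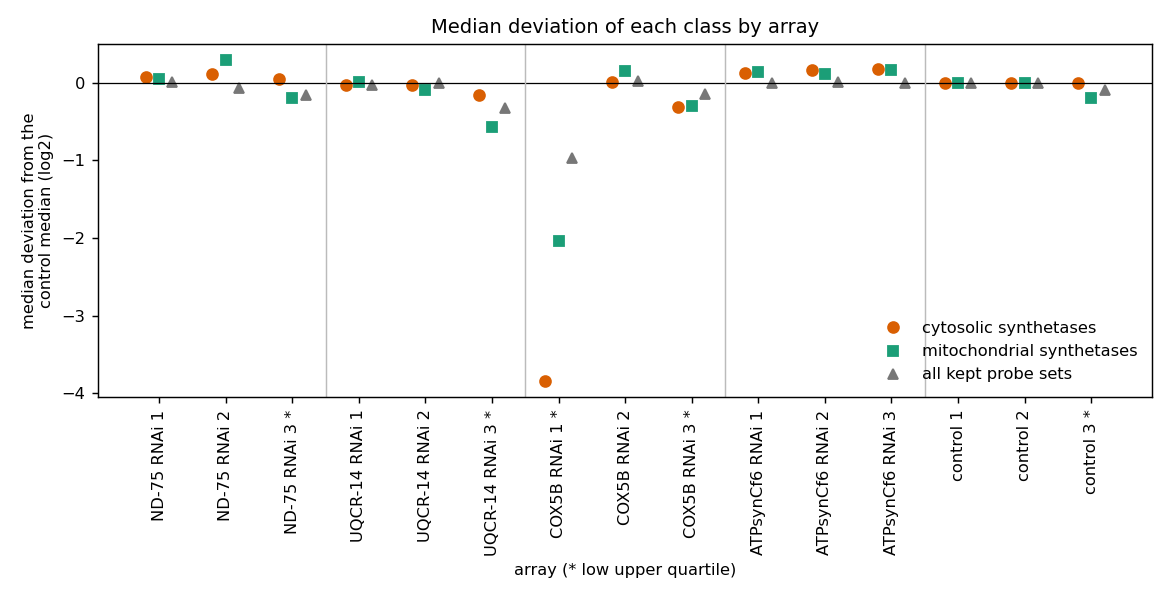
Median deviation from the control median (log2) of the 20 cytosolic synthetase probe sets, the 14 mitochondrial ones and all 10340 kept probe sets on each of the 15 arrays, starred where the upper quartile was low. The classes lie within 0.3 of 0 on the unstarred arrays and at -3.84 and -2.03 on COX5B RNAi array 1, and the 3 ATPsynCf6 RNAi arrays have cytosolic medians of 0.12 to 0.18.

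The enzymes of both compartments were paired by symbol for 10 amino acids. This gave 11 pairs, since both chains of the cytosolic phenylalanyl enzyme were set against PheRS-m. GluProRS was not set against GluRS-m and ProRS-m. Over the 10 arrays the cytosolic change exceeded the mitochondrial one in 7 of 11 pairs in ND-75, 7 in UQCR-14, 5 in COX5B and 9 in ATPsynCf6 RNAi. The asparaginyl pair had the highest difference in UQCR-14, COX5B and ATPsynCf6 RNAi. A phenylalanyl pair had the lowest in ND-75 (-0.76), UQCR-14 (-0.26) and ATPsynCf6 RNAi (-0.35). In COX5B RNAi the isoleucyl and tryptophanyl pairs were lowest and nearly level (-0.35 each). The tryptophanyl pair used TrpRS probe set 1638511_at, which changed by -0.27 there. Probe sets 1629619_at and 1635547_a_at changed by 0.59 and -0.07, and TrpRS-m by 0.08. The value and rank of this pair thus depend on the probe set. The median over pairs was between -0.02 and 0.16.

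The spread within groups was small on the 10 arrays and large on the 15. Over the 10 the median within-group SD was 0.12 for cytosolic and 0.14 for mitochondrial probe sets, beside 0.19 over all kept probe sets. The members' median of 0.12 was above the SD of 22.6% of all kept probe sets, and of 29.1% of the 7457 whose mean signal lay within the members' range. AsnRS-m had the highest SD of the members (0.30) and AlaRS the lowest (0.06). Over all 15 arrays the medians were 1.07, 0.62 and 0.71, so the cytosolic members were the more scattered once the 5 arrays were included. The arrays numbered 3 in ND-75 RNAi, UQCR-14 RNAi and control shifted members in both directions. Relative to arrays 1 and 2 of the same group, 9 of 20 cytosolic members (45%) were lower in all 3 groups and 6 (30%) higher in all 3. For the mitochondrial members it was 8 (57.1%) and 2 (14.3%), and over all kept probe sets 44.7% and 30.6%. Markers of some other tissues were high on these arrays. Ring gland markers (5 of 6 measured) summed to 2471 (ND-75), 3140 (UQCR-14) and 3268 (control), against 452 to 1311 on arrays 1 and 2 of these groups. Salivary gland markers summed to 7172, 17720 and 12734, against 892 to 10650. Glial markers (6 of 7) summed to 20053, 31921 and 28079, against 13784 to 17247. Neuronal markers summed to 8065, 1720 and 5684, against 7695 to 11915. Neuroblast markers summed to 13520, 2931 and 8866, against 11874 to 15858. Imaginal disc markers were lower, at 949, 674 and 1242, against 1353 to 2171. Fat body markers summed to 10288, 13094 and 10242, within the 8232 to 13217 of arrays 1 and 2. Muscle markers summed to 295, 636 and 421, against 292 to 504. Their part in these shifts was not tested. LeuRS differed by -0.83, -2.78 and -1.58 on array 3 of ND-75 RNAi, UQCR-14 RNAi and control, and HisRS by 0.51, 1.52 and 1.13. Replicate arrays thus differed by more than any contrast of these 2 genes over the 10 arrays.

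The partners of the synthetases were examined through lists written from general knowledge. Of 10 genes for the scaffold proteins AIMP1, AIMP2 and AIMP3 of the multisynthetase complex and other aminoacylation partners, 8 were measured. Of these 1 was called, GatB, a subunit of the amidotransferase that makes mitochondrial glutaminyl-tRNA. It read 751, 760 and 310 in ND-75 RNAi, against 455, 461 and 301 in control, and rose by 0.70 over the 10 arrays (SE 0.14, limma adjusted p = 0.0243). With weights the change was 0.65 (adjusted p = 0.140), and array 3 of ND-75 RNAi overlapped with control. Its partner subunit GatA changed by 0.29 (adjusted p = 0.476) over the same 10 arrays. No gene was called in any of the 3 fits among 11 listed with mitochondrial translation or among 18 cytosolic elongation and initiation factors. The first of these lists also holds TFAM and mtTFB2, factors of mitochondrial transcription, and the RNA-binding protein bsf. The second shares eEF1gamma with the list of partners. The median changes of these lists over the 10 arrays were between -0.11 and 0.08 and between -0.16 and 0.14 in the 4 RNAi groups.

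Of 12 measured genes in the ATF4 pathway list, 1 was called against control, Pepck2, a phosphoenolpyruvate carboxykinase. This list also holds Atf6 and Ire1, which belong to other stress pathways. It read 699, 795 and 555 in ND-75 RNAi, against 422, 241 and 163 in control, without overlap, and rose by 1.06 with weights (adjusted p = 0.0464) and 1.18 over the 10 arrays (adjusted p = 0.0184). The ATF4 transcript itself, crc, was not called, with weighted changes of -0.09 in ND-75, -0.37 in UQCR-14, -0.49 in COX5B and 0.07 in ATPsynCf6 RNAi. Of 15 measured genes of amino acid synthesis, 3 rose in ATPsynCf6 RNAi in both the weighted and the 10-array fit. AsnS, the asparagine synthetase, read 931, 839 and 796 there, against 496, 509 and 558 in control, a rise of 0.74 with weights (SE 0.13, limma adjusted p = 0.00180). Got2, the mitochondrial aspartate aminotransferase, read 3671, 3217 and 3262, against 2253, 2436 and 2909 in control, a rise of 0.52 (SE 0.11, adjusted p = 0.00740). P5cr, which completes proline synthesis, read 1108, 1062 and 1012, against 635, 816 and 978 in control, a rise of 0.57 (SE 0.13, adjusted p = 0.00950). For all 3 genes the ATPsynCf6 RNAi arrays lay above all control arrays. AsnS also lay above all control arrays in UQCR-14 RNAi (572, 693 and 764). So did P5cr in ND-75 RNAi (1034, 1026 and 1175), and neither was called there. In their other RNAi groups the 3 genes did not lie wholly above control. CG6287, the phosphoglycerate dehydrogenase of serine synthesis, fell over the 10 arrays by 0.44 in UQCR-14 RNAi (adjusted p = 0.0427) and by 0.38 in the mean of the 4 groups (adjusted p = 0.0417). It read 1781, 1737 and 3416 in UQCR-14 RNAi, against 2423, 2374 and 3015 in control, so that array 3, which the 10-array fit leaves out, overlapped with control. In the unweighted fit over 15 arrays no gene of these 5 lists was called. The 3 of 15 called in ATPsynCf6 RNAi stand beside 6.91% of all kept probe sets called there with weights and 3.22% over the 10 arrays. The single calls in ND-75 RNAi, 1 of 8 partners and 1 of 12 ATF4 pathway genes, stand beside 1.69% over the 10 arrays and 1.57% with weights. The call of CG6287, 1 of 15, stands beside 4.59% in UQCR-14 RNAi and 3.12% in the mean of the 4.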

How the data were processed

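Deposited values were MAS5 intensities on a linear scale, for 18952 probe sets on 15 arrays. The submitters' processing notes name MAS5, Transcriptome Analysis Console and Affymetrix Expression Console, and the authors' scaling was kept. Setting aside 183 array control probe sets left 18769, of which 13647 had 1 gene symbol, 402 several and 4720 none listed. Signals were analysed as log2(signal + 16). Probe sets above their array's median on at least 3 of 15 arrays were kept (10340). All 15 arrays entered 1 limma fit (version 3.58.1, R 4.3.3) of 5 group means with an intensity trend, two-sided. The number of arrays and the signal over background limit the precision. Per the labels, RNA was prepared in triplicate for each genotype. Separate crosses are not mentioned, so p-values measure the spread between these samples, which may be technical. With 3 arrays a group, no exact permutation p can be smaller than 0.1, and such tests were left out.

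Members and lists were chosen with earlier results of these data known. Values per array are given for members called in any of the 3 fits, for up to 3 of each class per contrast whose arrays did not overlap with control, and for probe sets of 1 gene that differed in sign by more than 1. In the neighbouring lists, called genes are named. Self-tests ran on simulated data. Alternatives were other normalizations, weights, offsets, filters, arrays left out and the replicate number as a block. Symbols came from the array's annotation, and the reference gene table held 35 synthetase symbols, of which 32 had a probe set. No sequences were used.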

Additional observations from a re-analysis of the deposited data

Results flagged for a closer look

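GlnRS was higher than control on all 3 ND-75 RNAi arrays and lower on all 3 UQCR-14 RNAi and all 3 COX5B RNAi arrays. Its mean log2 signal in ND-75 RNAi minus that in UQCR-14 RNAi was 0.30, and that in ND-75 RNAi minus that in COX5B RNAi was 1.86. ThrRS was lower than control on all 3 COX5B RNAi arrays and higher on all 3 ATPsynCf6 RNAi arrays, and its mean log2 signal in COX5B RNAi minus that in ATPsynCf6 RNAi was -1.74. These pairwise differences between RNAi groups were not tested by themselves. The 2 values with COX5B RNAi include its array 1, on which GlnRS read 39.7 and ThrRS 221.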

How the results depend on the processing

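No synthetase was called over 15 arrays under another offset, filter, quantile normalization, median centring, a term for the arrays numbered 3, the brightest probe set, no trend or leave-one-out (0 to 0 members). With the replicate block the members called were 0 in each comparison as well; all probe sets called were 9, 3, 0, 4 and 5 (ND-75, UQCR-14, COX5B, ATPsynCf6, mean), against 7, 5, 0, 2 and 5 without it. The numbers were not shown to pair arrays: deviations of same-numbered arrays correlated at 0.167 to 0.852 in 18 pairs and at -0.362 to 0.149 in 12 pairs with ATPsynCf6 RNAi, and 9 of 15 arrays correlated best with their own number. Quantile normalization with array weights called 2 members in ND-75 (PheRS-m, ProRS-m), 1 in UQCR-14 (AsnRS-m), 5 in COX5B, 4 in ATPsynCf6, 3 in the mean of the 4 and 6 in the F test, while 4.19% to 26.6% of all probe sets were called. This share differed between comparisons and is given only as a range, so no member count is read as above or below its own share. Counts below from settings chosen after seeing the data have no share beside them and are not read so either. With quantile normalization and weights AsnRS-m changed by -1.03 in UQCR-14, -1.11 in COX5B and -0.67 in ATPsynCf6 RNAi. The 10 arrays gave 1 member in UQCR-14 RNAi and array weights 1 in the mean of the 4. Chosen after seeing the data, the 10 arrays without ND-75 RNAi array 2 gave 2 in UQCR-14 RNAi and 1 in the mean, and weights without COX5B RNAi array 1 gave 1 in each. The cytosolic minus mitochondrial median in COX5B RNAi moved to -0.12 with weights, -0.12 over the 10 arrays with or without ND-75 RNAi array 2, -0.0908 with quantile normalization and weights, and -0.16 with weights without COX5B RNAi array 1; leave-one-out gave -1.22 to -0.0524. In COX5B RNAi the sign turned for TrpRS 1629619_at (leave-one-out range -0.27 to 0.78), for 1635547_a_at (0.076, weights without COX5B RNAi array 1) and for 1638511_at (0.26, median centring). The cause was not tested. A planned motif search was not run.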
